A study of Danio rerio with 6 samples.

Results

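The gene samd7 was followed across the eyes of 6 zebrafish larvae as the 1 row of that name among the 14781 genes of the deposited table. Its level, its rise in the mutants and its spread between larvae are set against 749 genes with a similar level in wild type (WT); their WT means ran from 0.8 times that of samd7 to the reciprocal multiple, which is 1422 to 2220 normalized counts. The larvae were offspring of samd7stl888 heterozygous parents, 3 of genotype WT and 3 samd7-/-, which carry the stl888 allele on both chromosomes. All were taken at 5 days post fertilization (dpf), and genotype was read from the rear of each body. The eyes of 1 larva gave 1 library, so the spread between libraries holds animal, dissection and library differences together. The labels do not describe the lesion, and a count per gene does not tell mutant from normal messenger RNA.

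SAMD7 is a protein with a sterile alpha motif (SAM), a small domain through which some chromatin proteins join into chains. It belongs with the Polycomb group, whose complexes mark histones and keep genes silent, and whose PRC1 complex contains SAM proteins of the Phc family. In mouse, Samd7 is made in photoreceptors under the homeobox factor Crx, binds Phc proteins and helps rods to silence genes of other cells. Whole eyes were measured here, so fewer cells of a type and less RNA per cell cannot be told apart.

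The libraries held 23185755 to 26672265 reads assigned to genes. Values below are normalized read counts, that is, reads divided by 1 size factor per library, with no correction for gene length. Photoreceptor markers were abundant, with summed counts that overlapped between genotypes. The summed list of 10 took 8.14 to 11.1% of all values in WT and 11.4 to 13.3% in samd7-/-, shares that did not overlap. Totals of all values were lower in every samd7-/- library than in any WT library, which raises shares there. Its members went opposite ways, with arr3b called higher and arr3a (log2 −6.88), rho (−2.24) and gnat1 (−2.33) lower, and the ultraviolet (UV) opsin gene opn1sw1 made up the largest part of the sum in every library. Lens genes took 5.31 to 9.67% in WT and 4.74 to 7.19% in samd7-/-. The library samd7-/- 1 stood apart. Genes of the exocrine pancreas, a list drawn up after their values were seen, summed to 252446 there, against 2907 and 4825 in samd7-/- 2 and 3 and 685 to 1327 in WT. Of its 17 tested genes, 16 were highest in samd7-/- 1, the exception being ptf1a, which the retina also uses. The samd7 rise, its ranks and the apoda.2 value are therefore also given without it. Summed normalized counts of markers of some other cells also differed between genotypes without overlap. The sum of the pineal list was lower in samd7-/- (8396 to 11718 in WT and 3180 to 5180 in samd7-/-). Of its 5 tested genes gngt1 and aanat2 were called lower and exorh higher, where limma called 0.301% of all tested genes. gngt1, a transducin gene that rods also use, made up the largest part of the sum in each WT library. It had 8575, 5944 and 4702 in WT and 1797, 901 and 1730 in samd7-/-, so the lower sum is not a measure of pineal cells alone. The skin and cornea sum was lower too (261100 to 280149 and 230489 to 258589), though as a share of all values the genotypes overlapped (1.02 to 1.1% and 0.980 to 1.14%). The amacrine and horizontal cell list (19291 to 20694 and 21224 to 22581), the ganglion cell list (10728 to 13550 and 13732 to 14328) and the brain list (984 to 1142 and 1184 to 1520) were higher. In the skin and cornea, amacrine and horizontal cell, ganglion cell and brain lists, limma, edgeR and DESeq2 each called 0 genes. Among single genes, 13.1% of those tested also kept the genotypes apart, in either direction. A sum without overlap is therefore not by itself a sign of a shift in cell types. The part of these lists, and of the pineal list, in the results was not tested.

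The samd7 transcript was 2.49 times as abundant in the mutant eyes. Normalized counts were 1813, 1587 and 1931 in WT larvae 1, 2 and 3, and 4691, 4070 and 4479 in samd7-/- larvae 1, 2 and 3. The genotypes did not overlap, and the lowest mutant larva stood at 2.11 times the highest WT larva. Means were 1777 ± 175 (SD, n = 3) and 4413 ± 316 (SD, n = 3). On the log2(value + 1) scale the difference was 1.31 (SE 0.12), with a 95% interval of 1.04 to 1.58 (limma, adjusted p = 0.00491). By its unadjusted p the gene ranked 7 among the 11959 tested. Calls were rare over all genes: 5 of the tested genes, or 0.0418%, passed the adjusted threshold of 0.05 as higher in samd7-/-, and 31, or 0.259%, as lower.

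**Figure D1:**
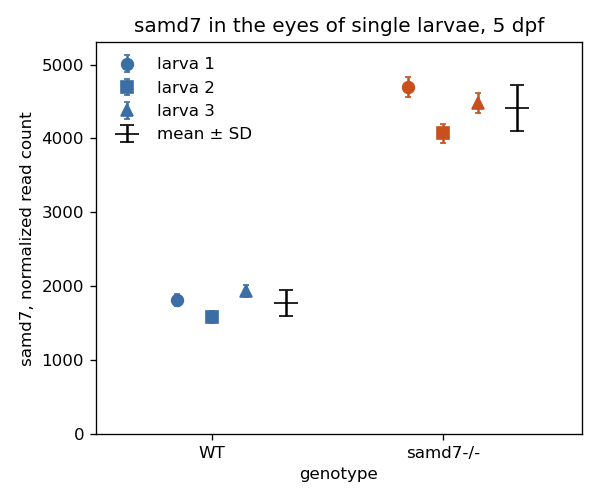
Normalized read count of samd7 (vertical axis) in each larva by genotype (horizontal axis), with exact Poisson 95% intervals for counting error on each point and the mean ± SD over 3 larvae in black. The 3 samd7-/- larvae lie between 4070 and 4691 and the 3 WT larvae between 1587 and 1931.

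Counting error, taken as the Poisson error of reads, was a small part of the spread. The libraries held 1897, 1429 and 2105 samd7 reads in WT and 4772, 4025 and 4580 in samd7-/-. From these counts alone a coefficient of variation (CV) of 2.36% would follow in WT and 1.50% in samd7-/-, where the measured CVs were 9.83% and 7.16%. Larva 2 was the lowest of its genotype in both groups, and without it the CV was 4.44% in WT and 3.27% in samd7-/-. The WT CV was 13.8% without WT 1 and 9.40% without WT 3. In samd7-/- it was 6.77% without samd7-/- 1 and 10.0% without samd7-/- 3. In RPM, reads scaled only to the total assigned to genes in each library, samd7 stood at 71.1, 61.1 and 80.9 in WT and 202.6, 173.1 and 197.5 in samd7-/-. On that scale, too, every mutant larva lay above every WT larva. The log2 difference was 1.43, and a two-sided exact permutation test gave p = 0.1, the lowest value open to groups of 3.

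The rise held with any 1 larva left out. Log2 differences ranged from 1.23 without WT 2 to 1.38 without WT 3, and adjusted p from 0.00841 to 0.0370 over the 6 fits. Without samd7-/- 1, the library with the highest sum of pancreas genes, the log2 difference was 1.27 (limma, adjusted p = 0.0305). Of the 5 genes called higher with all 6 larvae, samd7 was the 1 that was called in each of these 6 fits. Leaving out WT 2 or WT 3 cut the count of genes called higher to 2 in each case, and leaving out samd7-/- 1 cut it to samd7 itself, 1 gene; the other fits called 3 to 5.

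The other genes called higher make a ready comparison for how far the genotypes stood apart. arr3b, a cone arrestin gene of the UV and blue cones, had 138410, 158948 and 128212 in WT and 383126, 375321 and 393177 in samd7-/-. The lowest mutant larva was 2.36 times the highest WT larva for arr3b, 3.96 times for exorh, which encodes the pineal rhodopsin, 2.93 times for pcyt1aa, a gene of phosphatidylcholine synthesis, and 1.50 times for tbx2a, a T-box factor of UV cones. exorh varied most between larvae of 1 genotype, with a CV of 33.5% in WT and 42.1% in samd7-/-, while tbx2a (9.15% and 8.25%) varied about as much as samd7. With single larvae left out, the limma call was kept in 1 of 6 fits for arr3b (adjusted p up to 0.111), 1 for exorh (up to 0.0990), 3 for pcyt1aa (up to 0.0734) and 0 for tbx2a (0.0741 to 0.183). With all 6 larvae, arr3b had a smaller adjusted p than samd7 with edgeR (0.0038 against 0.0088) and DESeq2 (8.1e-23 against 1.7e-16). For exorh it was smaller with DESeq2 (3.6e-18) and larger with edgeR (0.0175), and for pcyt1aa and tbx2a it was larger with both.

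Among genes of similar WT level no other rose as far. The 749 genes had WT means from 1422 to 2220, so their counting error in WT is close to that of samd7. Their median log2 fold change was −0.01, with 5th and 95th percentiles of −0.34 and 0.32, and 358 of 749 were positive. Of these genes, 0 had a rise as large as that of samd7, and 1 changed as far in either direction. That gene was aanat2, a melatonin synthesis gene and the single member of the 749 to pass with limma or edgeR (1958 ± 387 in WT and 488 ± 36.9 in samd7-/-, SD, n = 3; log2 −1.98, limma adjusted p = 0.00332). It was also called with any 1 larva left out (adjusted p up to 0.0370). The share called by limma, 0.134%, compares with 0.301% of all tested genes in either direction, and edgeR called 0.284% of all genes. DESeq2 called 5 of the 749, where it called 0.679% of all genes it gave an adjusted p. No test was made of these ranks.

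The 3 largest rises of the similar-level set did not pass with limma, edgeR or DESeq2. For syncrip, which encodes an RNA-binding protein, the log2 difference was 0.87 (limma, adjusted p = 0.688). Its WT counts of 951, 2316 and 2336 were far apart, against 3003, 3275 and 3202 in samd7-/-. ctcf, the gene of a chromatin insulator protein, had 0.73 (adjusted p = 0.471) and nr2f1b, a nuclear receptor gene, 0.56 (adjusted p = 0.663). Among falls, rnf182, a ubiquitin ligase gene, had −1.02 (adjusted p = 0.285) and the ciliary gene cfap20 −0.73 (adjusted p = 0.128), neither past the threshold with limma. DESeq2 called both (adjusted p = 0.00572 for rnf182 and 0.00181 for cfap20). The genes nearest to samd7 in WT mean were rnd1 and mknk2a just below, at 1775 each, and mcm3 and nup93 just above, at 1778 and 1781. Their log2 fold changes were 0.01, −0.60, 0.28 and 0.01, none of which passed.

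**Figure D2:**
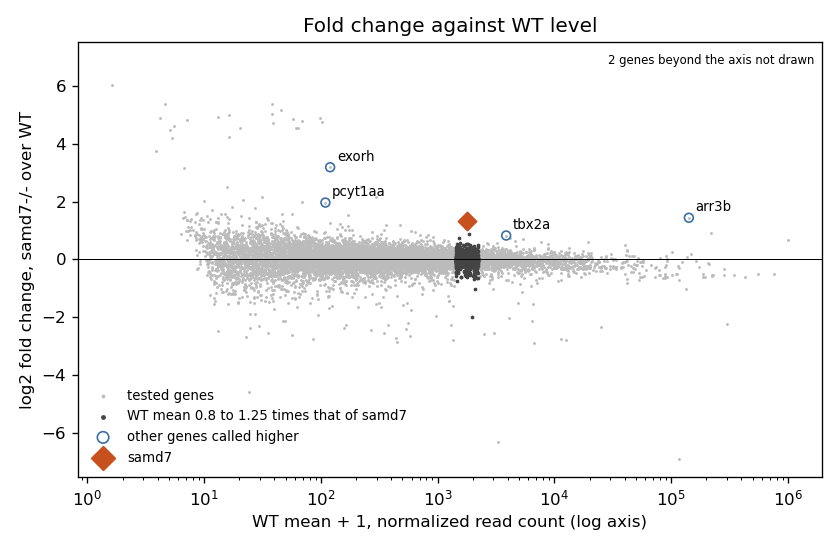
Log2 fold change, samd7-/- over WT (vertical axis), against the WT mean plus 1 in normalized read counts (horizontal log axis) for the tested genes, except opn1mw1 and ndufs8b, which lie beyond the vertical axis. samd7, at 1.31, lies above every one of the 749 genes of similar WT level (dark points), whose largest rise was 0.87.

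Most of the larger rises in the eye belonged to genes that were scarce in WT. Over all tested genes 62 had a larger log2 fold change than samd7. Of these, 55 had a WT mean under 100, where ratios are unsteady, and 16 were genes of the pancreas list. The filter asked for 10 in 3 or more libraries, so a gene could enter through the mutants alone. One such gene was pdia2, with 0, 0 and 1.83 in WT and 1782, 15.2 and 25.4 in samd7-/-. The counts of larger rises and distances therefore include genes admitted by the group where they were high. Of the 1799 tested genes with a WT mean at or above that of samd7, 1 rose further, arr3b. Without samd7-/- 1 the number with a larger rise was 63, and over the 6 fits with 1 larva left out it ranged from 61 to 99, the highest being without WT 2. A larger distance between the lowest mutant and the highest WT larva was seen for 21 genes, 11 of them on the pancreas list and 3 of them called. The mutants lay wholly above WT for 6.66% of all tested genes and for 64 of the 749 similar-level genes, or 8.54%. The largest such distance among those 64 was 1.29-fold, where samd7 had 2.11-fold.

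The spread of samd7 within each genotype lay near the middle of that of its similar-level genes. Its CV of 9.83% in WT was below the median of 12.6% of the similar-level genes, and 35.5% of them had a smaller value. In samd7-/- its CV of 7.16% was close to their median of 7.51%, and 47.1% had a smaller value. Set against the 333 tested genes whose mutant mean lay in the same relative window around that of samd7, 47.1% again had a smaller CV in the mutants. The residual SD on the log2 scale was 0.126 for samd7, and 30.4% of the similar-level genes had a smaller one. Of the 749 genes 542, or 72.4%, had a smaller CV in samd7-/- than in WT, as samd7 did. These genes share the same 6 libraries, so 1 library can set this share. Whether larvae of 1 genotype are more alike was not tested. With 3 larvae a CV is a rough figure, and the share of similar-level genes with a smaller CV in WT ran from 19.2% without WT 2 to 78.1% without WT 1.

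**Figure D3:**
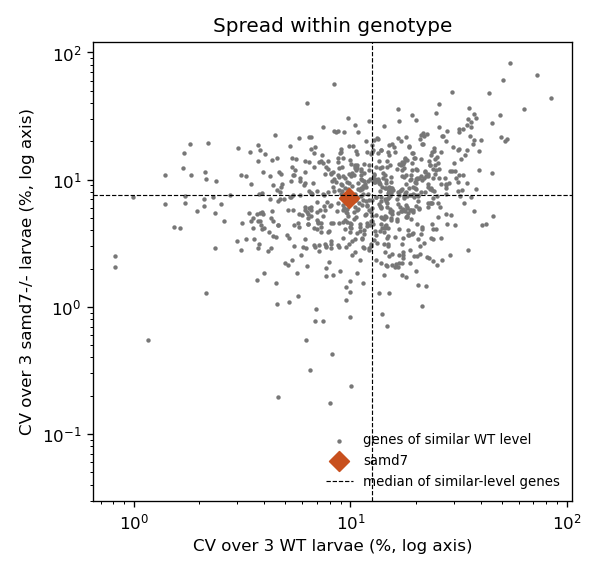
CV over the 3 samd7-/- larvae (vertical log axis, percent) against CV over the 3 WT larvae (horizontal log axis, percent) for the 749 genes of similar WT level and for samd7 (diamond). Dashed lines mark the medians of the 749 genes, 12.6% in WT and 7.51% in samd7-/-, and samd7 lies below both.

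Genes used broadly in photoreceptors did not pass with limma. Of a list of 17 such genes 9 were matched and tested, and limma called 0 in either direction, where it called 0.301% of all tested genes. At that share, 0 calls among 9 genes say little about the list. Unadjusted p was under 0.05 for 2 of the 9, where it was for 6.33% of all tested genes. edgeR called 0 and DESeq2 called 1, where they called 0.284% and 0.679% of all genes with an adjusted p. Their median log2 fold change was −0.04, against 0.00 over all tested genes. Their summed counts ranged from 266731 to 293029 in WT and from 246121 to 287941 in samd7-/-, ranges that overlap. Per 100 reads of this sum, samd7 had 0.619, 0.595 and 0.709 reads in WT and 1.70, 1.65 and 1.56 in samd7-/-. The mutants were thus 2.56 times as high relative to the sum, with every mutant above every WT larva (exact permutation p = 0.1, two-sided, the smallest possible). Its log2 value, 1.35, lies inside the interval of the plain difference.

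Relative to single photoreceptor genes the picture held in each of the 9. crx, the homeobox factor of photoreceptors, stood at 17034 ± 1678 in WT and 15478 ± 584 in samd7-/- (SD, n = 3). Per 100 crx reads, samd7 had 9.85, 10.5 and 11.0 reads in WT and 29.3, 26.2 and 30.1 in samd7-/-, a 2.73-fold difference (exact permutation p = 0.1). The smallest difference, 1.89-fold, was against otx5, an Otx factor of photoreceptors and pineal cells, and the largest, 4.36-fold, against zgc:73075, listed as rcvrn3, a recoverin gene. otx5 stood at 6749 ± 184 and 8908 ± 534 (log2 0.40, limma adjusted p = 0.484), and zgc:73075 at 42186 ± 6932 and 23940 ± 2799 (log2 −0.81, adjusted p = 0.178; DESeq2 called it). For all 9 denominators the genotypes did not overlap. The 9 ratios share samd7 as numerator, so they are not separate tests of its rise.

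Of the photoreceptor transcription factors most missed the threshold, among them Crx, which drives Samd7 in mouse. Calls were more frequent in this list than over all tested genes. The list was chosen with earlier results of these data known, so a higher share is no test of it. Among the 24 tested, 22 missed the threshold, with 1 called higher and 1 lower and a median log2 fold change of 0.06. Over all tested genes limma called 0.301% in either direction. Unadjusted p was under 0.05 for 8 of the 24, where it was for 6.33% of all tested genes. DESeq2 called 3 (tbx2a, nr2e3 and foxq2) and edgeR 1 (nr2e3), beside 0.679% and 0.284% of all genes with an adjusted p. The gene that rose was tbx2a (3863 ± 353 to 6855 ± 566, log2 0.83, adjusted p = 0.0332), a call lost with any 1 larva left out and with edgeR (adjusted p = 0.0553). The gene that fell was nr2e3, a nuclear receptor of rods (4896 ± 89.5 to 1729 ± 336, log2 −1.52, adjusted p = 0.00789), a call lost with WT 1, WT 2 or WT 3 left out (adjusted p up to 0.0645). Among the most abundant that did not pass, neurod1 had a log2 fold change of −0.06, rx1 of 0.08 and six7, a regulator of cone opsins, of −0.26. Another Otx gene, otx2, had 0.03 (adjusted p = 0.966).

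None of the Polycomb and SAM genes tested passed. Of 57 listed genes 37 were matched and 36 tested, and limma, edgeR and DESeq2 each called 0. Over all genes with an adjusted p they called 0.301%, 0.284% and 0.679%, so 0 calls among 36 genes say little about the list. Unadjusted p was under 0.05 for 0 of the 36, where it was for 6.33% of all tested genes. Their median log2 fold change was 0.08, with 24 of 36 positive, and their summed counts overlapped between genotypes (23432 to 25898 in WT and 23737 to 25651 in samd7-/-). As a share of all values the sum was higher in samd7-/- without overlap (0.0919 to 0.1004% in WT and 0.1025 to 0.1131%). The total of all values was lower in each samd7-/- library than in any WT library, so shares there run higher. samd11, the nearest relative of samd7, and phc3 were not analysed here. The Phc genes, whose proteins carry SAM domains, did not pass: phc2a stood at 1381 ± 38.1 and 1356 ± 58.4 (log2 −0.03), phc2b at 574 ± 121 and 651 ± 70.9 (0.20) and phc1 at 222 ± 71.6 and 272 ± 20.1 (0.35). rnf2, which encodes the catalytic subunit of PRC1, stood at 2943 ± 147 and 3070 ± 44.2 (0.06). The largest difference was that of l3mbtl3, a SAM and MBT domain gene near the filter (log2 1.59, adjusted p = 0.781), with 10.5, 1.11 and 11.0 in WT and 21.6, 21.2 and 14.7 in samd7-/-. Among other SAM genes tested, samd13, samd1a and scmh1 had log2 fold changes of −0.19, −0.21 and 0.22 (adjusted p = 0.835, 0.855 and 0.939).

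The genes beside samd7 on chromosome 2 did not pass, though low unadjusted p was more frequent among them than over all tested genes. Of the 10 tested protein-coding genes on each side in RefSeq gene order, limma, edgeR and DESeq2 each called 0, with no adjusted p for apoda.2 from DESeq2. Over all genes with an adjusted p they called 0.301%, 0.284% and 0.679%, so 0 calls among 20 genes say little about the region. Unadjusted p was under 0.05 for 6 of the 20, beside 6.33% of all tested genes, and their median log2 fold change was −0.01. sec62, the nearest tested gene on one side, encodes a part of the protein import channel of the endoplasmic reticulum. It had 328, 362 and 414 in WT and 454, 396 and 414 in samd7-/- (log2 0.20, adjusted p = 0.846). nadkb, an NAD kinase gene next to it, had 464, 529 and 534 in WT and 647, 575 and 601 in samd7-/- (log2 0.26, adjusted p = 0.791). Of the 20 neighbours 7 had genotypes that did not overlap, beside 13.1% of all tested genes in either direction. Those 7 did not go one way, with pex19 (log2 −0.39), sdr39u1 (−0.55) and zgc:66427 (0.42) among them.

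On the other side the nearest tested genes are a pair of apolipoprotein D genes, apoda.1 and apoda.2. apoda.1 had 8004, 6257 and 5798 in WT and 6115, 4228 and 6081 in samd7-/- (log2 −0.30, adjusted p = 0.820), and the genotypes overlapped. apoda.2 had 18.2, 8.89 and 30.3 in WT and 5459, 83.9 and 165 in samd7-/-, so that 1 mutant larva stood far above the others. Its log2 fold change was 4.56 (SE 1.35, adjusted p = 0.616), and 2.72 without samd7-/- 1 (adjusted p = 0.315). The same larva had the highest sum of pancreas genes. Per 100 reads of the summed pancreas list, apoda.2 had 2.29, 1.3 and 2.28 reads in WT and 2.16, 2.89 and 3.43 in samd7-/-. For samd7 the same ratio was 228, 232 and 146 in WT and 1.86, 140 and 92.8 in samd7-/-. The list was drawn up after its values were seen, and its high sum in samd7-/- 1 lowers any ratio to it there. samd7 and the summed list placed the 6 libraries in the same order, from samd7-/- 1 down to WT 2. The part of these transcripts in the samd7 rise was not tested. The value without samd7-/- 1 given above cannot settle it, as the list also summed higher in samd7-/- 2 and 3 (2907 and 4825) than in WT (685 to 1327). Reads of the neighbouring copies apoda.1 and apoda.2 may be split between them, and the kit does not keep the strand.

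**Figure D4:**
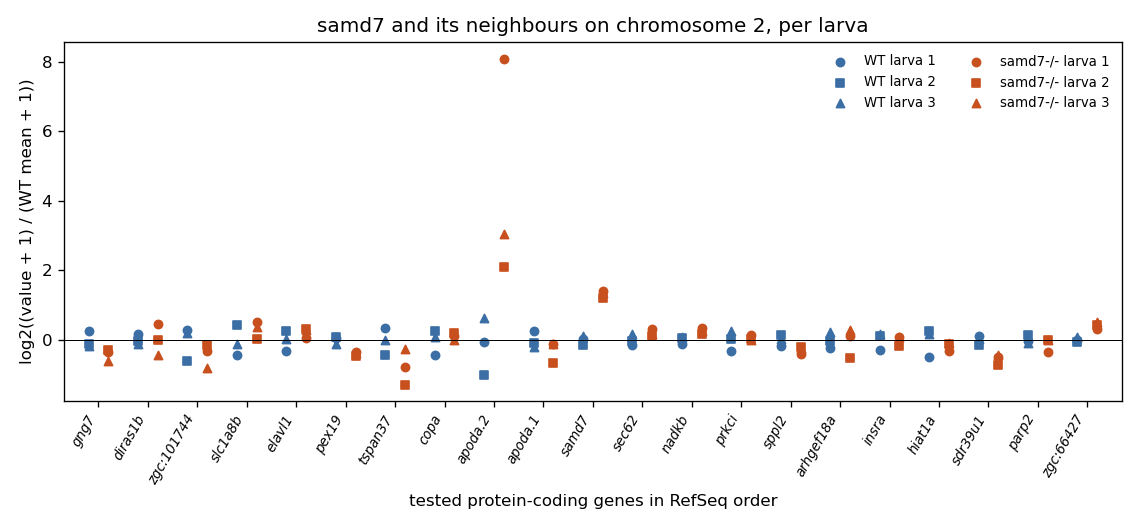
Log2 of (value + 1) over (WT mean + 1) for each larva (vertical axis) in samd7 and the 20 nearest tested protein-coding genes on chromosome 2, placed in RefSeq order and evenly spaced (horizontal axis). The samd7-/- points of samd7 lie together above all WT points, whereas those of apoda.2 are spread, with larva 1 highest.

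Across the 6 libraries the gene with the most similar pattern was arr3b. Likeness was measured as the root mean square difference between log2(value + 1) profiles, each centred on its own mean over the 6 libraries. The 10338 other tested genes with a mean of at least 50 over all 6 libraries were compared. A gene could thus enter through the mutants alone, as penka did (mean 45.1 in WT and 102 in samd7-/-). The distance was 0.19 for arr3b, 0.23 for penka, 0.24 for hs3st3b1a, 0.24 for fn1b and 0.25 for foxq2, where the median gene was at 0.70. A gene equal in all 6 libraries would lie at 0.665, the root mean square of the samd7 profile itself. The measure thus picks genes with a rise of similar size between genotypes, and nearness is no test of shared expression. penka encodes an opioid peptide precursor, hs3st3b1a a heparan sulfate modifying enzyme, fn1b a fibronectin and foxq2 a forkhead factor of blue cones. Besides arr3b none of these passed with limma, where adjusted p was 0.513 for penka, 0.158 for hs3st3b1a, 0.513 for fn1b and 0.0550 for foxq2. DESeq2 called hs3st3b1a (adjusted p = 0.00186) and foxq2 (adjusted p = 4.15e-05), and edgeR called neither. With 1 larva left out, 1 to 3 of these 5 were still among the nearest 5, so the makeup of the nearest 5 depended on single larvae.

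The mutant larvae did not keep the same order for these genes. samd7, hs3st3b1a and fn1b were highest in samd7-/- 1, penka, arr3b and foxq2 in samd7-/- 3, and samd7, arr3b, penka and fn1b were lowest in samd7-/- 2. foxq2 had 759, 559 and 585 in WT and 1150, 1228 and 1234 in samd7-/-, with a log2 fold change of 0.94 that is smaller than the 1.31 of samd7.

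**Figure D5:**
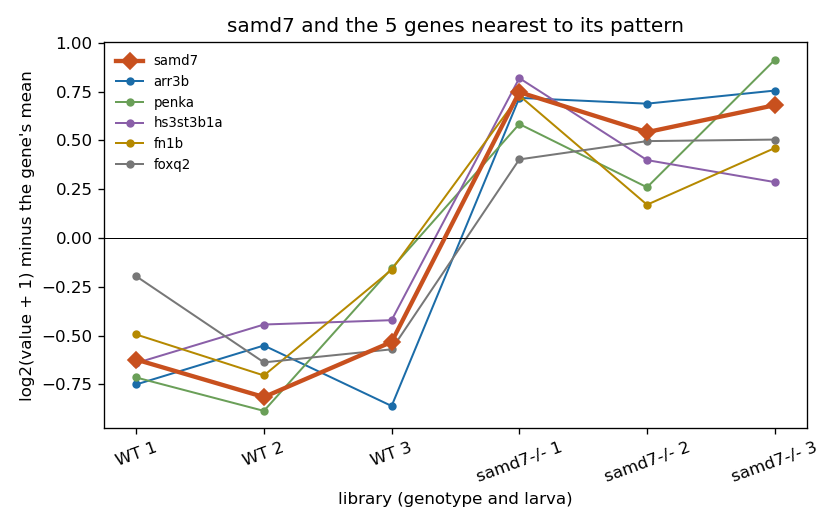
Log2(value + 1) minus the mean of each gene over 6 libraries (vertical axis) by library (horizontal axis) for samd7 and the 5 genes with the nearest pattern. Lines only join the points of a gene, and all 6 genes are higher in each samd7-/- library than in any WT library. The 5 genes were chosen for nearness to samd7 over these same libraries, so this largely follows from the choice.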

How the data were processed

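RNA from larval eyes was read as 150 bp pairs from SMARTer Ultra Low libraries, per the labels' protocols. The genome build danRer10 and the tools STAR 2.7.2b, Trim Galore 0.6.1, R 4.1.3, DESeq2 1.34.0 and HTSeq 0.9.1 are named by the submitters' processing notes; no source used here names the annotation. The authors deposited a signal per gene, reads scaled by a library's size factor, and 100% of values were whole multiples, within 0.001, of the value of 1 read. Per the file headers, an adjusted p-value and a log2 fold change were deposited for each gene too, and these served as an alternative. For samd7-/- 2 the value of 1 read is 1.01, so near 1 that recovery rests on these multiples alone.

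The main test was limma 3.58.1 (trend) in R 4.3.3 on log2(value + 1), 2-sided, with Benjamini-Hochberg adjustment over genes that reached 10 in 3 or more libraries and a threshold of 0.05. This scale understates fold changes of scarce genes. edgeR 4.0.16 and DESeq2 1.42.0 were run on recovered reads. The Poisson intervals (95%) on single larvae cover counting error only. The limma interval rests on the spread between larvae, with the variance of each gene drawn toward a trend over all tested genes. Reads carry no molecular identifiers, so copies made in amplification are not told apart and the Poisson error may be too small.

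Genes and lists were chosen with earlier results of these data known. The genes named are samd7, the genes called higher, those nearest in level and pattern, the nearest neighbours, and from each list those that passed and the most abundant; the pancreas list and other single genes were named after their values were seen. Of list symbols, 7 were matched through RefSeq synonyms (assembly GRCz12tu), which also gave the order of genes. Sequences were not used here.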

Additional observations from a re-analysis of the deposited data

How the results depend on the processing

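The samd7 rise passed under all 18 alternative settings, with log2 fold changes of 1.23 to 1.38 and adjusted p from 1.7e-16 (DESeq2) to 0.0370 (without WT 2). With the replicate number as a block (replicate block) it was 1.31 (adjusted p = 0.00832), and 4 genes were called higher and 29 lower. Same-numbered larvae correlated at 0.029, 0.183 and −0.002 in their deviations, and larvae of different number at −0.159 to 0.145. The value of 0.183, between WT 2 and samd7-/- 2, was the highest of all, but not every larva correlated best with its own number. With so few larvae per genotype, these values cannot decide whether the numbers pair the larvae. Relative to the median of similar-level genes, a scale chosen after seeing the data, the log2 fold change was 1.32.

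The number of genes called depended on single larvae: with 1 left out, 1 to 5 were called higher and 4 to 23 lower. With array weights 8 were higher. DESeq2 called 24 higher and 66 lower, as did the authors' deposited table. The log2 ratio of samd7 to the summed photoreceptor genes was 1.35, with a range of 1.11 (quantile normalization) to 1.43, and that to crx 1.45, with a range of 1.38 to 1.51; neither changed direction. When comparison genes were chosen by their mean over all 6 libraries, 4 of 477 rose as far as samd7 (ela2l, ela3l, prss59.1 and zgc:92041), 3 of them on the pancreas list and all highest in samd7-/- 1; with each of the other 10 alternatives 0 did.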
